A study of Mus musculus with 4 samples.

Results

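The Hedgehog pathway was examined through 9 genes, Shh, Ptch1, Smo, Gli1, Gli2, Gli3, Hhip, Sufu and Boc, in retinal cells sorted by a Crx reporter. Each gene was taken through the features (probe sets) that the platform annotation gives to that symbol alone, keeping the one with the highest mean where a gene has several. All 9 had 1 such feature, out of 18920 genes and 22431 features on the array. The cells came from retinas of BAC-Crx-EGFP mice on a 129Sv/Ev background at embryonic stage E17.5. These mice carry enhanced green fluorescent protein under regulatory sequences of Crx, a homeodomain transcription factor of photoreceptor precursors, on a bacterial artificial chromosome. The EGFP-positive and the EGFP-negative fraction were each measured as 2 samples on 1 Affymetrix whole-transcript array each, from 100 ng of total RNA, and both fractions carry the transgene. The labels do not say whether the replicates were separate animals or sorts, so p-values reflect the variation among these samples alone, and that variation may be technical.

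Hedgehog proteins are secreted ligands. Ptch1, their receptor, holds the membrane protein Smo inactive until a ligand binds, and active Smo then acts in the primary cilium on the zinc finger transcription factors Gli1, Gli2 and Gli3. In the embryonic retina Shh is known as a signal of differentiating ganglion cells to the dividing progenitors, and Gli1, Ptch1 and Hhip are themselves induced by the pathway in many tissues, which makes them common readouts of it.

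The study compared the expression profile of Crx reporter cells with that of the remaining retinal cells. For 7 of the 9 genes the mean was lower in the EGFP-positive than in the EGFP-negative fraction, beside 11700 of all 22431 features. For Shh and Sufu it was higher. The largest differences were those of the pathway readouts Hhip and Gli1, with 2.63-fold and 2.26-fold higher intensity in the negative cells. No member passed an adjusted p of 0.05 in limma, against 0.963% of all features that did (0.143% lower and 0.82% higher in the positive fraction). At an unadjusted p under 0.05, 5 of the 9 were lower (Hhip, Gli1, Boc, Smo and Gli2), against 9.83% of all features, and none was higher, against 9.34%. With the replicate number as a block, 6 of the 9 were called lower, against 6.69% of all features. The replicate numbers are not shown to pair the samples. The median log2 difference, positive minus negative, was -0.48 over the 9 genes and -0.01 over all features. For the 9 genes it was -0.70 when positive replicate 1 was left out and -0.28 when positive replicate 2 was. Without positive replicate 1, Hhip and Gli1 passed the threshold (limma adjusted p = 0.00642 and 0.00992), in a fit that called 3.4% of all features lower. That fit has 1 positive array and takes its spread from the negative ones, where Hhip had an SD of 0.12 against 0.55 in the positive fraction. Neither gene passed when another array was left out, with adjusted p from 0.0649 to 0.362 for Hhip and from 0.125 to 0.426 for Gli1.

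Sequence before the start of transcription was in the RefSeq promoter table (GRCm38.p6) for 6 of the 9 genes, namely Ptch1, Smo, Gli2, Gli3, Hhip and Sufu. The 250 bases upstream are shown for Hhip and Sufu, the members with the lowest and the highest log2 difference, with capitals for each CG dinucleotide. The Hhip stretch lies on the minus strand at chr8:80058009-80058258 and the Sufu stretch on the plus strand at chr19:46396646-46396895.
Hhip: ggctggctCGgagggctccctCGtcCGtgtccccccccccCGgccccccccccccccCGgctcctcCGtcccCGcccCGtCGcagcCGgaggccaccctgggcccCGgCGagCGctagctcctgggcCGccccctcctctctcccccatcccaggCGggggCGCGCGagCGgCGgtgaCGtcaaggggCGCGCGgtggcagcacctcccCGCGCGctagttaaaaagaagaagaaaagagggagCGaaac
Sufu: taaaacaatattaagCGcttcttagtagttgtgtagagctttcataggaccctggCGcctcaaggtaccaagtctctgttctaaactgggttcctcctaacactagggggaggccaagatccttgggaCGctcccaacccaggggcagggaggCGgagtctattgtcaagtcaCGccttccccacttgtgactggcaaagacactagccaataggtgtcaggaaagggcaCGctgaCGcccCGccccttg
The Hhip stretch had 28 CG dinucleotides and a GC content of 76.0%, and the Sufu stretch 8 and 54.0%, beside a median GC content of 52.4% over all promoters of the table. The other 4 had 67.2% (Gli2) to 78.4% (Ptch1). The known Gli binding sequence GACCACCCA was searched on both strands in windows of 300 bases, from 250 before to 50 after the start. It was in none of the 6 windows and in 0.253% of all 32851 windows. The looser GACCNCCCA, which includes every match of the first, was also in none of the 6 and in 0.977% of all. With shares this low, finding no match in 6 windows cannot set these genes apart from others, and Gli1 had no window to search. These letters can lie outside a window of this size.

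Shh (feature 10528872, Entrez gene 20423), the ligand, read 136.1 and 162.8 on positive arrays 1 and 2, against 144.6 and 138.7 on negative arrays 1 and 2. The fractions overlapped, since the 2 positive arrays held both the lowest and the highest reading. As log2 intensity the means were 7.22 ± 0.18 and 7.15 ± 0.04 (SD, n = 2), a difference of 0.07 ± 0.13 (limma SE, adjusted p = 0.854) with a 95% interval from -0.25 to 0.39. The sign turned without positive replicate 2, where the difference was -0.057. The deposited values carry no call of detection, and no value on any array is below 18.9, so whether Shh or a marker was above background cannot be read from them. Markers of ganglion cells, the known source of Shh, differed between replicates more than Shh did. Over 16 measured markers the median log2 difference of replicate 2 minus replicate 1 was 0.72 for positive and 1.15 for negative cells, while that of Shh was 0.26 and -0.06. The markers summed to 7718 and 13517 on the positive arrays against 6447 and 14396 on the negative arrays, and their part in the Shh reading was not tested.

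**Figure D1:**
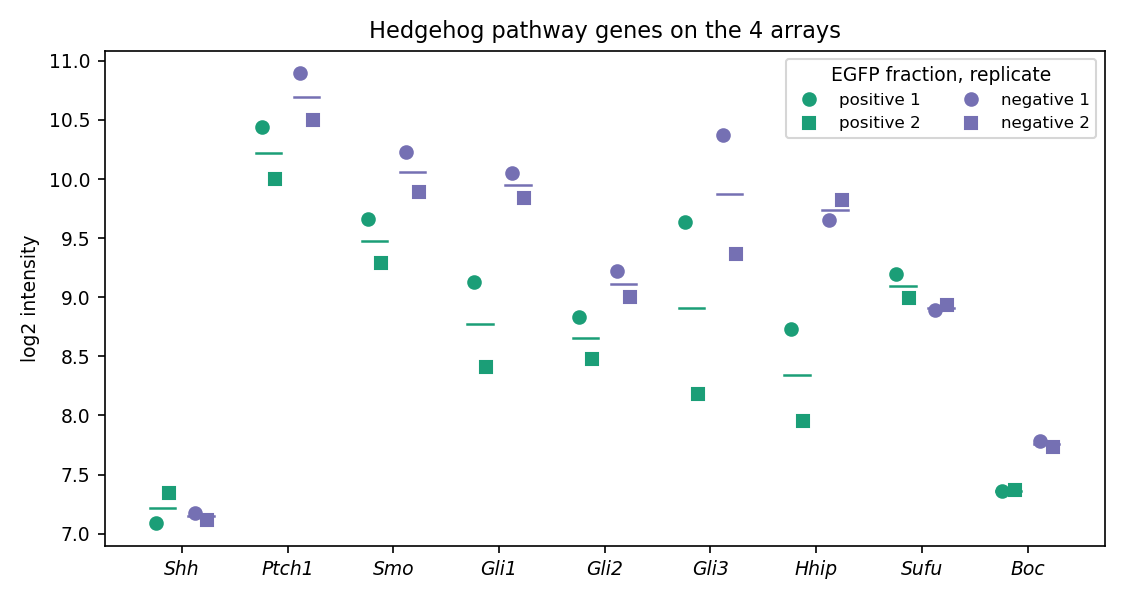
Log2 intensity (vertical axis) of the 9 Hedgehog pathway genes (horizontal axis) on each array, with EGFP-positive cells in green, EGFP-negative cells in violet, circles for replicate 1, squares for replicate 2 and bars for the mean of each fraction. For Hhip, Gli1, Smo, Ptch1, Gli2 and Boc both green points lie below both violet points, for Sufu both lie above, and for Shh and Gli3 the fractions overlap. Heights of different genes are readings of different probes and are not to be compared.

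Ptch1 (feature 10410039, Entrez gene 19206), the receptor, read 1390.4 and 1021.3 on the positive arrays against 1904.2 and 1443.7 on the negative arrays. Positive replicate 1 came close to negative replicate 2, and the fractions did not overlap. The log2 difference was -0.48 ± 0.21 (limma adjusted p = 0.307, 95% interval from -1.003 to 0.050). It was -0.70 when positive replicate 1 was left out, -0.25 when positive replicate 2 was and -0.28 when negative replicate 1 was. Hhip (feature 10579894, Entrez gene 15245), a membrane protein that binds the ligand and holds it from Ptch1, read 424.8 and 247.8 on the positive arrays against 804.5 and 906.5 on the negative arrays. Both positive arrays were far below the negative ones, and replicate 2 was the lower of the positive arrays. Its log2 means were 8.34 ± 0.55 and 9.74 ± 0.12 (SD, n = 2), and the difference of -1.40 ± 0.26 (limma adjusted p = 0.0850, 95% interval from -2.06 to -0.73) was the 28th lowest of the 22431 features. It ranged from -1.79 to -1.01 when each array was left out in turn.

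Boc (feature 10439612, Entrez gene 117606), a co-receptor that binds Hedgehog ligands together with Ptch1, had the closest positive replicates of the 9 genes. It read 164.0 and 165.0 on the positive arrays against 220.2 and 212.5 on the negative arrays. The gap between the fractions was wider than the gap within either one. The log2 difference was -0.40 ± 0.10 (limma adjusted p = 0.126, 95% interval from -0.64 to -0.15), and it stayed between -0.42 and -0.37 when each array was left out. Smo (feature 10536917, Entrez gene 319757), the signal transducer, read 809.1 and 627.4 on the positive arrays against 1199.5 and 947.7 on the negative arrays, without overlap. It differed by -0.58 ± 0.18 (limma adjusted p = 0.180, 95% interval from -1.04 to -0.12).

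Of the Gli factors, Gli1 (feature 10373179, Entrez gene 14632), an activator that the pathway induces, read 560.6 and 340.8 on the positive arrays against 1063.2 and 914.4 on the negative arrays. Both positive arrays were well below both negative arrays, with the positive replicates further apart than the negative ones. The log2 means were 8.77 ± 0.51 and 9.95 ± 0.15 (SD, n = 2), and the difference was -1.17 ± 0.25 (limma adjusted p = 0.0993, 95% interval from -1.81 to -0.54). Leaving out positive replicate 1 gave -1.53, and leaving out positive replicate 2 gave -0.81. Gli2 (feature 10357137, Entrez gene 14633), the main activator upstream of Gli1, read 455.4 and 355.4 on the positive arrays against 596.2 and 513.2 on the negative arrays, without overlap. Its log2 difference was -0.46 ± 0.16 (limma adjusted p = 0.217, 95% interval from -0.87 to -0.05), and -0.28 when positive replicate 2 was left out.

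Gli3 (feature 10403727, Entrez gene 14634), known mainly as the repressor of the family, varied most between replicates. It read 795.9 and 290.9 on the positive arrays against 1326.4 and 660.5 on the negative arrays. Positive replicate 1 was above negative replicate 2, so the fractions overlapped, and replicate 2 was the lower array in both. The difference of -0.96 ± 0.55 (limma adjusted p = 0.444) had a 95% interval from -2.36 to 0.44, the widest among the 9 genes, and moved from -1.69 without positive replicate 1 to -0.23 without positive replicate 2. Replicate 2 minus replicate 1 of Gli3 was -1.45 for positive and -1.01 for negative cells, larger in size than for 99.8% and 99.5% of all features. Summed intensities of 8 glial markers were also lower in replicate 2, at 4141 and 2814 for positive and 6628 and 5057 for negative cells. Of the 8 markers 7 were lower there in both fractions, beside 32.4% of all features. So were 12 of 12 cell cycle genes and 6 of 12 progenitor markers. Most of each glial sum came from Glul and Slc1a3. Without Glul the sums were 1767 and 1078 for positive and 2712 and 1937 for negative cells. Slc1a3 read 781.9 and 384.0 for positive and 1473.6 and 1193.1 for negative cells. For 10 endothelial and mural markers the sums were 4733 and 2647 for positive and 6484 and 4353 for negative cells. This gap between replicates was nearly all due to 1 gene of the list, Kdr, a receptor of vascular growth factor. The other 9 markers did not share it, with sums of 1562 and 1540 for positive and 1595 and 1469 for negative cells. The part of glial, endothelial or dividing cells in the Gli3 readings was not tested.

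Sufu (feature 10463645, Entrez gene 24069), which binds Gli proteins and holds them out of the nucleus, read 587.7 and 508.4 on the positive arrays against 473.8 and 487.8 on the negative arrays. It was the 1 member with both positive arrays above both negative arrays, a pattern shown by 22.3% of all features. The log2 difference was 0.19 ± 0.12 (limma adjusted p = 0.493, 95% interval from -0.11 to 0.48). It was 0.081 when positive replicate 1 was left out and 0.29 when positive replicate 2 was. The opposite pattern, both positive arrays below both negative ones, was found in 6 of the 9 genes and in 25.3% of all features. The intervals of Hhip, Gli1, Smo, Gli2 and Boc lay below 0, and those of Ptch1, Gli3, Shh and Sufu included it. With 2 arrays per fraction the smallest change called in any feature was 0.75 on the log2 scale, and an exact permutation test could not give a two-sided p below 0.333.

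**Figure D2:**
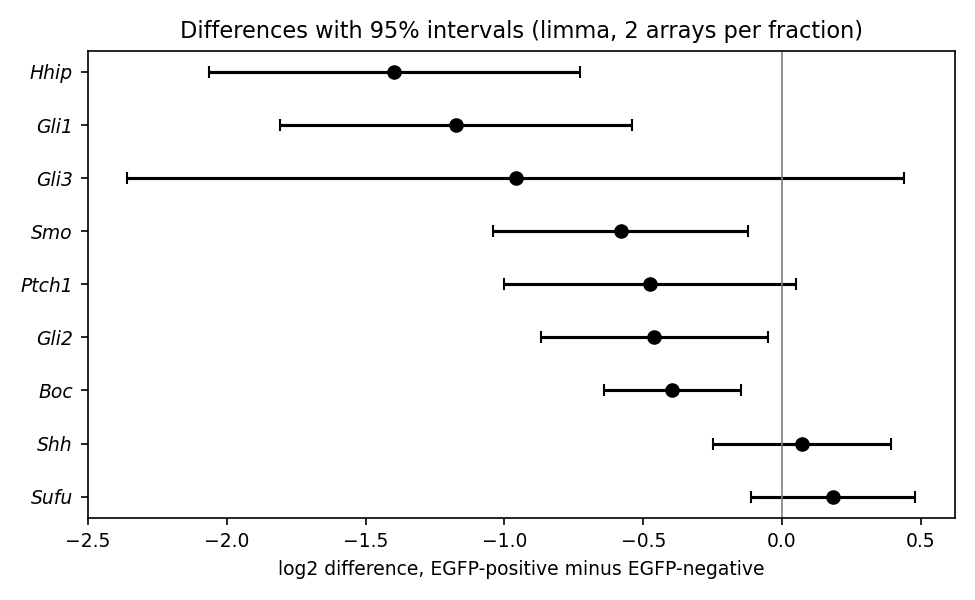
Log2 difference, EGFP-positive minus EGFP-negative (horizontal axis), of the 9 genes in order of their difference (vertical axis), with points for limma's estimate from 2 arrays per fraction and bars for the 95% interval, unadjusted. Hhip (-1.40) and Gli1 (-1.17) lie farthest below 0 and the bar of Gli3 is the widest.

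Markers of the labelled cells were checked on the same arrays. Of 10 photoreceptor precursor markers, 8 were called higher in the positive fraction, beside 0.82% of all features, and 10 had both positive arrays above both negative ones, beside 22.3%, with Crx higher by 3.66 ± 0.19 on the log2 scale (limma adjusted p = 0.00596). Of 12 progenitor markers 1 was called lower, Sox2, beside 0.143% of all features. Sox2 fell by 1.36 ± 0.10 (limma adjusted p = 0.0119). Over the 12 progenitor markers the median was -0.60. Both positive arrays were below both negative ones for 7 of the 12, beside 25.3% of all features. Both were above for 1, Pax6 (0.19 ± 0.11, limma adjusted p = 0.432), beside 22.3%. For 4 the fractions overlapped, as for 11763 of all 22431 features, and of these Rax differed by 0.08 ± 0.11 (limma adjusted p = 0.803). The 12 progenitor markers summed to 25482 and 22234 on the positive arrays against 32124 and 33731 on the negative arrays. Of 12 cell cycle genes none was called by limma, beside 0.143% of all features called lower. Lower at an unadjusted p under 0.05 were 11 of the 12, beside 9.83% of all features. The median of the cell cycle genes was -1.21. They summed to 18105 and 8925 on the positive arrays against 31979 and 25345 on the negative arrays. Of 12 amacrine and horizontal cell markers 2 were called higher, beside 0.82% of all features. Both positive arrays were above both negative ones for 9 of these 12, beside 22.3%. The part of progenitors and dividing cells in the differences of the Hedgehog genes was not tested, and in bulk RNA fewer cells of a type and less RNA per cell cannot be told apart.

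The replicates separated several members in the order shown by the cell cycle genes. Ptch1, Smo, Gli1 and Gli2 rank, from the lowest array to the highest, as positive replicate 2, positive replicate 1, negative replicate 2 and negative replicate 1. This order, looked at after the values were seen, was held by 4 of the 9 members, by 11 of the 12 cell cycle genes and by 11.7% of all features. It was also held by 4 of 12 progenitor markers, 4 of 12 ligand genes, 4 of 16 targets and 2 of 8 glial markers. No photoreceptor precursor or ganglion cell marker held it. Replicate 2 was below replicate 1 in both fractions for 5 members, Ptch1, Smo, Gli1, Gli2 and Gli3, as for 32.4% of all features. Hhip and Sufu departed from this in the negative fraction, where replicate 2 was higher by 0.17 and 0.04 on the log2 scale. Shh and Boc departed from it in the positive fraction, where replicate 2 was higher by 0.26 and 0.01. The median of the cell cycle list differed between replicates 2 and 1 by -0.99 for positive and -0.37 for negative cells, and Gli1 by -0.72 and -0.22.

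**Figure D3:**
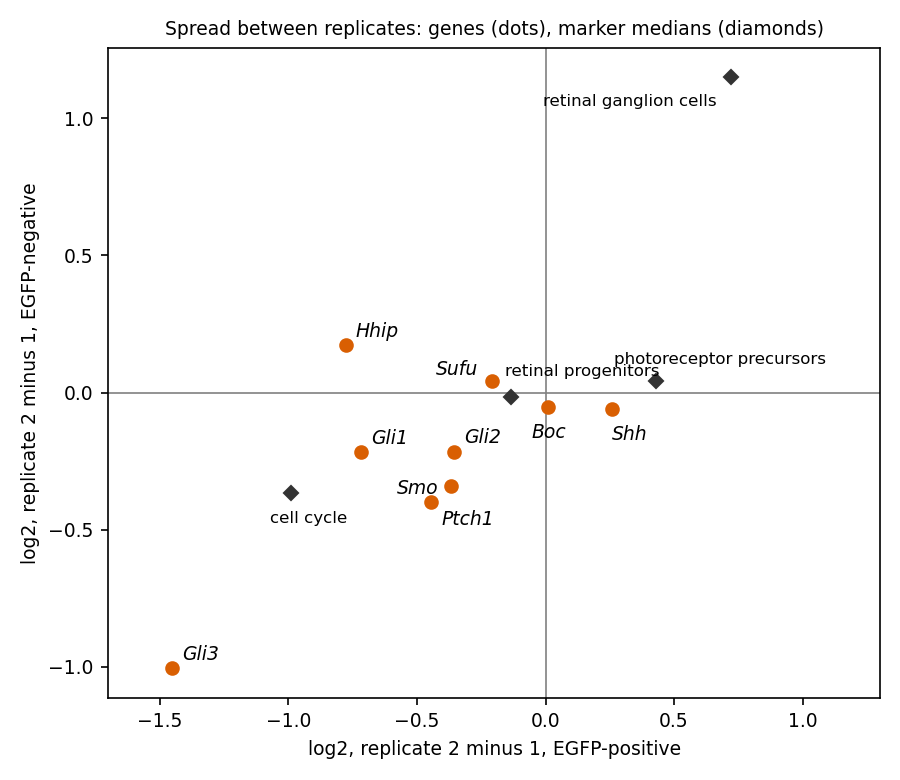
Replicate 2 minus replicate 1 on the log2 scale in the EGFP-positive (horizontal axis) and the EGFP-negative fraction (vertical axis), with a dot for each of the 9 genes and a diamond for the median of a marker list. Gli3 (-1.45 and -1.01) lies at the lower left, beyond the cell cycle median (-0.99 and -0.37), while the ganglion cell median (0.72 and 1.15) lies at the upper right and Shh and Boc lie near 0 in the negative fraction.

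The genes whose centred log2 values were closest to those of Gli1 over the 4 arrays were Pdzrn3 (Euclidean distance 0.04), Clspn (0.05) and Depdc1a (0.09), among 4664 genes with a range of at least 0.5. Gli1 itself ranged over 1.64. Pdzrn3 read 637.5 and 382.9 on the positive arrays against 1168.5 and 1044.9 on the negative arrays, with a log2 difference of -1.16. The differences of Clspn and Depdc1a were -1.22 and -1.13. None of these was called (limma adjusted p from 0.0874 to 0.101). Among the same genes Yod1 (0.18), Gm5941 (0.19) and Orm3 (0.19) were nearest to Shh. Shh itself ranged over 0.26, less than the 0.5 asked of the candidates, so genes as flat as Shh were not searched. With 4 arrays such a likeness is a description only.

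**Figure D4:**
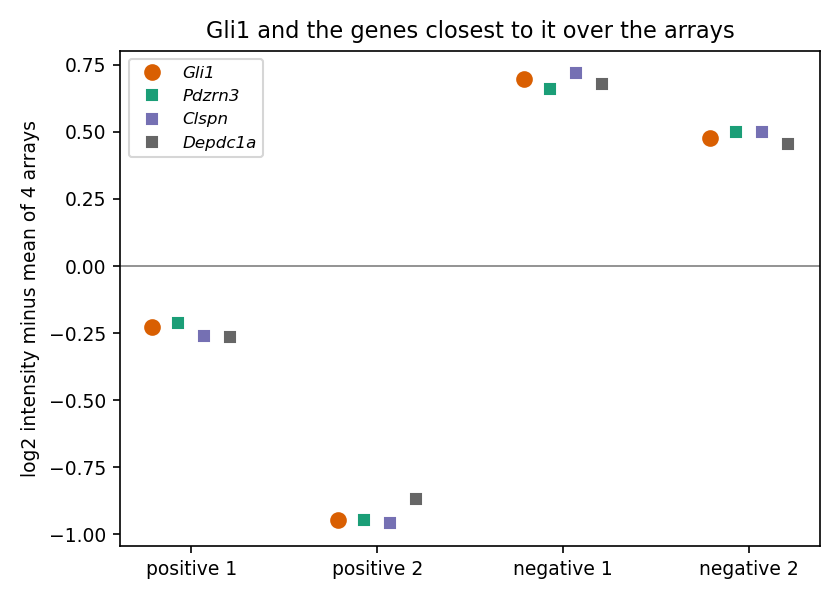
Log2 intensity minus the mean of the 4 arrays (vertical axis) for Gli1 (circles) and the 3 genes closest to it (squares) on each array (horizontal axis). All 4 genes are below their mean on both EGFP-positive arrays, lowest on positive replicate 2, and highest on negative replicate 1.

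Further genes of the pathway were summarised by lists, and none of their members was called by limma in either direction. Beside the signs given for each list, 11700 of all 22431 features had a negative and 10731 a positive difference. Of 12 ligands and genes of ligand release or transport, 8 had a negative and 4 a positive difference, with a median of -0.09. With an unadjusted p under 0.05, 4 were lower and 1 was higher, beside 9.83% and 9.34% of all features. The heparan sulfate proteoglycan genes Gpc3 and Gpc4 differed by -1.06 ± 0.39 and -0.50 ± 0.13 (limma adjusted p = 0.235 and 0.143). Gpc3, which can hold Hedgehog ligands away from Ptch1, read 329.6 and 182.5 on the positive arrays against 693.4 and 375.4 on the negative arrays, so replicate 2 was again the lower one. Scube1, of a family of secreted proteins of which some aid ligand release, read 330.6 and 325.2 against 231.5 and 240.3 (0.48 ± 0.10, adjusted p = 0.0937). Of the other Hedgehog ligands, Ihh read 254.5 and 264.2 against 257.4 and 264.7, and Dhh read 104.5 and 112.8 against 134.5 and 110.6. The fractions overlapped for both.

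Of 9 measured receptors and membrane regulators, 6 had a negative difference. With an unadjusted p under 0.05, 2 were lower and 1 was higher, beside 9.83% and 9.34% of all features. The median difference was -0.17. Leaving out positive replicate 1 gave -0.39, and leaving out positive replicate 2 gave -0.027. Gas1, a co-receptor like Boc, read 1181.7 and 547.8 on the positive arrays against 1517.9 and 1181.3 on the negative arrays, with a difference of -0.73 ± 0.37 (limma adjusted p = 0.378). Its positive replicate 1 lay level with negative replicate 2, and positive replicate 2 was the lowest array, as for Gli3. Evc, of the ciliary complex that relays the signal of Smo, differed by -0.51 ± 0.13 (adjusted p = 0.128). Arrb1, an arrestin that binds Smo among other receptors, differed by 0.47 ± 0.12 (adjusted p = 0.128). Cdon, a co-receptor related to Boc, was not analysed here.

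Genes of Gli processing, kinases and ciliary transport had 9 members above 0 and 11 below among 20 measured, with a median of -0.05, which turned to 0.040 without negative replicate 1. With an unadjusted p under 0.05, 6 were higher and 2 lower, beside 9.34% and 9.83% of all features. Gsk3b, a kinase that phosphorylates Gli proteins before their cleavage, read 3460.0 and 4003.5 on the positive arrays against 2375.5 and 2548.2 on the negative arrays (0.60 ± 0.12, limma adjusted p = 0.0907). Dyrk2, a kinase that marks Gli2 for degradation, differed by 0.58 ± 0.11 (adjusted p = 0.0885). Rab23, a small GTPase that restrains the pathway, read 308.5 and 299.0 against 463.7 and 441.4 (-0.57 ± 0.10, adjusted p = 0.0785). The ciliary kinesin gene Kif7 differed by -0.28 ± 0.13 (adjusted p = 0.353).

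Of 7 measured zinc finger factors related to the Gli family, 5 had a positive difference. With an unadjusted p under 0.05, 1 was lower and 1 higher, beside 9.83% and 9.34% of all features. The median was 0.19, which turned to -0.049 without positive replicate 2. Leaving out positive replicate 1 gave 0.32, and leaving out negative replicate 2 gave 0.067. Zic1 read 392.0 and 418.6 on the positive arrays against 575.1 and 664.3 on the negative arrays (-0.61 ± 0.12, limma adjusted p = 0.0881). Zic4 and Zic5 had 2 features each, which disagreed in sign, at 0.31 and -0.14 for Zic4 and at 0.28 and -0.02 for Zic5.

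Among 16 measured genes known as Hedgehog targets in various tissues, 13 had a negative difference, with a median of -0.13. With an unadjusted p under 0.05, 5 were lower and none was higher, beside 9.83% and 9.34% of all features. Hes1, a repressor that is also a progenitor marker and a Notch target, read 745.1 and 340.2 on the positive arrays against 1708.9 and 1185.6 on the negative arrays (-1.50 ± 0.40, limma adjusted p = 0.138). Ccnd1, the cyclin of early cell cycle entry, read 6046.0 and 3384.2 against 9462.8 and 8734.1 (-1.01 ± 0.28, adjusted p = 0.148). Both had their lowest reading on positive replicate 2. Sfrp1, a secreted Wnt antagonist, read 251.5 and 247.5 against 416.3 and 471.7 (-0.83 ± 0.11, adjusted p = 0.0516). Mycn, a transcription factor of dividing precursors, lay on the other side, at 1939.4 and 1857.4 against 1437.5 and 1661.6 (0.30 ± 0.12, adjusted p = 0.262).

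**Figure D5:**
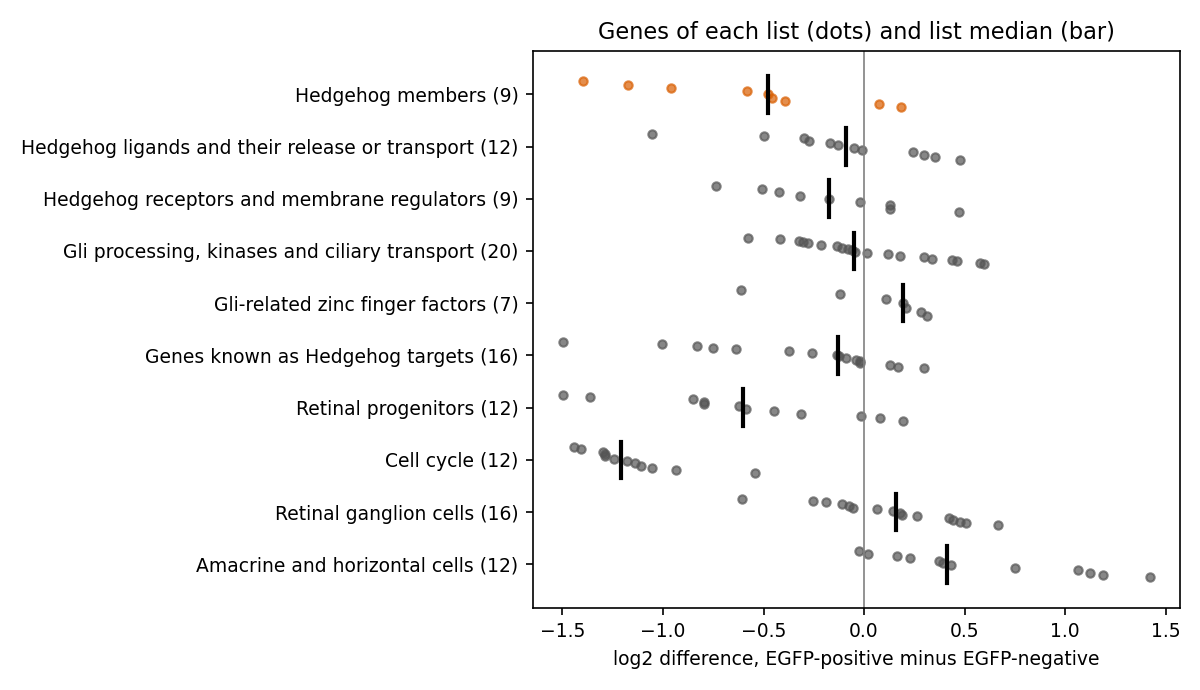
Log2 difference, EGFP-positive minus EGFP-negative (horizontal axis), of each measured gene (dots) and the median (bar) of the 9 Hedgehog genes (orange), 5 further pathway lists and 4 marker lists (vertical axis, with the number of genes measured). The median is -0.48 for the 9 genes, between -0.17 and 0.19 for the further pathway lists, -0.60 for progenitors and -1.21 for the cell cycle.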

How the data were processed

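RNA of sorted retinal cells was measured on 4 arrays, 2 per fraction. The deposited values are intensity values on a linear scale, for which the submitters' processing notes name RMA (background correction, quantile normalisation and probe summarisation) and the genome build mm8. No version or filter is stated there. The range of values, 18.9 to 36625.2 with array medians of 218.4 to 222.9, was taken to mean a linear scale. RMA draws the arrays to 1 common distribution, which removes any overall difference in RNA content. The number of arrays limits the precision, and the median SE was 0.12.

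Values were taken as log2 without a pseudocount and fitted over all 22431 features with limma 3.58.1 in R 4.3.3 (lmFit, eBayes without a trend), positive minus negative. P-values are two-sided and Benjamini-Hochberg adjusted over all features, with a threshold of 0.05. Features with 1 symbol (20176) could name genes. The fit was tested on simulated data. None of the 9 members lay below the 25th percentile of mean intensity, the limit of an alternative filter. All 9 symbols matched RefSeq by Entrez number.

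Members and lists were chosen with earlier results of these data known, and no list was tested as a set. Named genes were all members, in each further pathway list the 3 genes with the largest difference where none was called, some genes always named (Gas1, Ccnd1, Mycn, Kif7, Crx, Sox2), and for Shh and Gli1 the 3 closest genes. Ihh, Dhh, Kdr, Glul, Slc1a3, Pax6 and Rax, and the marker sums without Kdr or Glul, were added after their values were seen. The alternatives were another variance model, centring, renewed quantile normalisation, a filter, gene means, a pseudocount of 50, a replicate block and each array left out. Glial, endothelial, amacrine and horizontal, microglial and pigment cell lists were also measured, with median log2 differences of -0.10, -0.03, 0.41, -0.08 and 0.13. Only Tfap2a and Tfap2b, of the amacrine and horizontal list, were called, both higher in the positive fraction. Coordinates of features are not given, since no genome of build mm8 was used here.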

Additional observations from a re-analysis of the deposited data

How the results depend on the processing

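Across the 99 values of single members under the 11 alternatives, 90 kept their direction and their side of the threshold, 8 passed it and 1 turned, Shh, at -0.057 without positive replicate 2, which ranged up to 0.20 when other arrays were left out. Outside the fits that leave out an array or use the block, the adjusted p ranged from 0.0741 to 0.104 for Hhip and from 0.0864 to 0.122 for Gli1. The count of features called lower was 32, and it was 51 with gene means, 17 with a pseudocount of 50 and between 0 and 762 when each array was left out in turn. The count called higher was 184 and ranged from 0 to 667 in those fits, with the highest counts without positive replicate 1 and 0 without either negative array. Members called lower ranged from 0 to 2 there. In those fits the median of the 9 members ranged from -0.70 to -0.28, that of the ligand list from -0.16 to -0.019, the receptor list from -0.39 to -0.027, the Gli processing list from -0.066 to 0.040, the Gli-related list from -0.049 to 0.32 and the target list from -0.20 to -0.059. The cause of these moves was not tested.

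With 2 pairs the replicate numbers are not shown to pair the samples, although the deviations of same-numbered samples correlated over features (r = 0.48). With the replicate number as a block, limma called 1377 features higher and 1500 lower (6.69% of all), among them 6 of the 9 members: Ptch1, Smo, Gli1, Gli2, Gli3 and Hhip, with adjusted p from 0.0100 (Gli1) to 0.0385 (Gli2).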
